A study of Mus musculus with 8 samples.

Results

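Complex I (NADH:ubiquinone oxidoreductase) is the first enzyme of the mitochondrial respiratory chain. Its genes were described here in 8 RNA sequencing libraries of mouse heart ventricle. All gene symbols that begin with Nduf followed by a, ab, b, c, s, v or af and a number were taken, which gave 45 of the 54429 genes in the deposited table. They comprise 36 subunits encoded in the nucleus, 8 assembly factors (Ndufaf1 to Ndufaf8) and Ndufa4, which carries a complex I name but was later assigned to complex IV. All 8 libraries came from both ventricles of C57BL/6 mice at postnatal day 35, with loxP sites in Esrra and Esrrg, the genes of the estrogen-related receptors alpha and gamma (ERRα and ERRγ). Pups were injected between day 0 and day 1 with an adeno-associated virus (AAV). For the 4 libraries of the group AAV-Cre it carried Cre recombinase driven by the cardiac troponin T promoter, so that deletion was directed to cardiomyocytes and not to the other cells of the ventricle. For the other 4, the group AAV-Luc, it carried luciferase, and these animals had the same floxed alleles. Nothing in the labels ties a library to a mouse of its own, and p-values therefore cover the spread between libraries, which may be technical.

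Complex I takes electrons from NADH, passes them along a chain of iron-sulfur clusters to ubiquinone and pumps protons across the inner mitochondrial membrane. The N module oxidises NADH, the Q module reduces ubiquinone, and the proximal and distal parts of the membrane arm hold the pump. The catalytic core subunits are encoded partly in the nucleus and partly in mitochondrial DNA, and accessory subunits surround them. Assembly factors bind the modules while they are put together and are absent from the finished enzyme. Cardiac muscle is rich in complex I, and ERRα and ERRγ are transcription factors known to act on genes of oxidative metabolism. The comparison addresses how the transcripts of this complex differ when both receptors are targeted in heart muscle cells.

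Values are RPKM, read numbers divided by gene length and by the total of the library, so levels are relative to that total. The gene lengths used are not given, so levels of different genes can be compared only roughly. The steps between low RPKM values imply totals of 48285000 to 61250000 reads. That is 48.3 to 61.2 reads for 1 RPKM in a gene of 1 kilobase. Of the low read numbers so implied, 73.3 to 79.1% were even, and whether both reads of a pair were counted was not tested. Fold changes are AAV-Cre over AAV-Luc on log2(RPKM + 0.5), fitted with limma over the 16385 genes that reached 1 RPKM in 4 or more libraries. A gene counts as called when its Benjamini-Hochberg adjusted p over all those genes is under 0.05. Among all genes tested, 73.3% were called, 8.87% lower and 64.4% higher, and their median log2 fold change was 0.41. Values after subtraction of each library's median, which sets that shift to 0, are called centred, and with them 45.9% of genes were called, 24.1% lower and 21.8% higher. Esrra stood at 39.05 ± 4.66 RPKM in AAV-Cre and 45.09 ± 3.66 in AAV-Luc (SD, n = 4 each), with a limma adjusted p of 0.0705. Its log2 fold change was -0.21, and after centring Esrra was called lower at -0.62 (limma adjusted p = 0.000549). Esrrg stood at 217.9 ± 17.7 RPKM in libraries labelled AAV-Cre, beside 112.7 ± 5.51 RPKM in AAV-Luc (limma adjusted p = 5.32e-06). Esrrg was thus higher, which goes against that label, and gene-level RPKM does not show whether the floxed exons are missing.

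Nuclear subunits of complex I were lower in AAV-Cre almost throughout the enzyme. Of the 36 subunits, 34 fell, none rose, and Ndufa11 and Ndufa2 were not called, beside 8.87% of all genes called lower. The median log2 fold change of the subunits was -0.77, with a range from -1.42 to -0.02, and 513 of the 16385 genes tested (3.13%) lay below that median. After centring, 36 of 36 were called lower beside 24.1% of all genes, with a median of -1.18. In 34 subunits all 4 AAV-Cre values lay below all 4 AAV-Luc values, as they did in 7.67% of all genes, while 66.1% of all genes had no overlap in either direction. The subunits are abundant genes, and of the 1572 genes that averaged 50 RPKM or more, 23.2% were called lower and 59.2% higher, and their median log2 fold change was 0.34. The AAV-Cre mean of a subunit was between 37.3% and 98.5% of its AAV-Luc mean, with a median of 58.3%, and it was under 50% for 12 subunits.

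**Figure D1:**
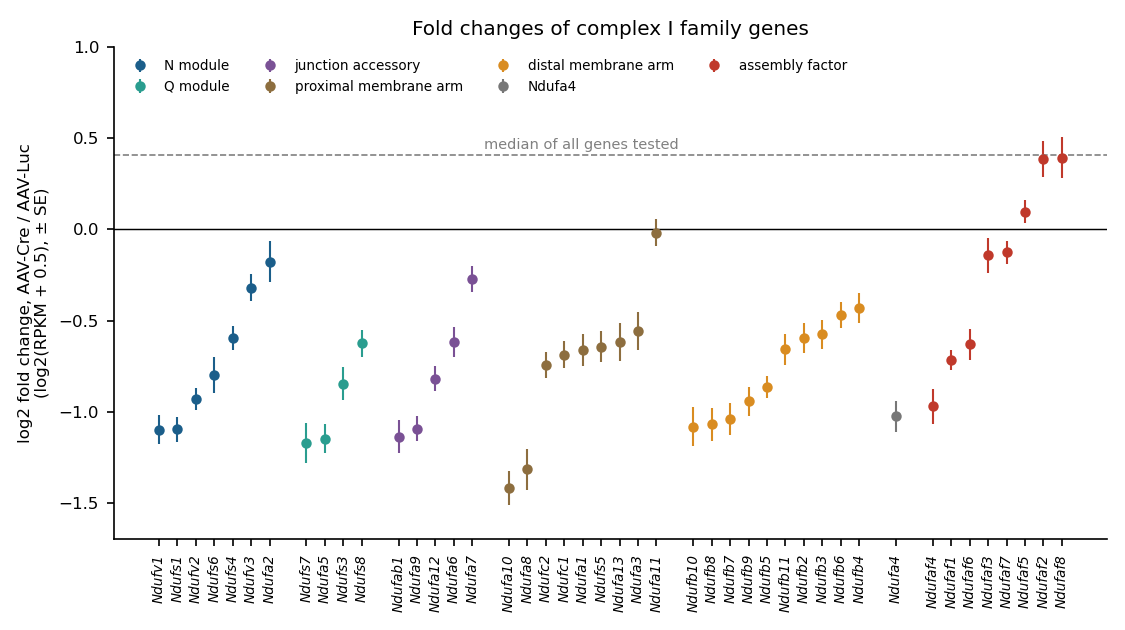
Log2 fold change (AAV-Cre over AAV-Luc, log2(RPKM + 0.5)) with its standard error for the genes named in the text, grouped by their place in the complex; n = 4 libraries a group. The solid line is 0 and the dashed line is the median of all genes tested, 0.41. The subunits drawn lie below the solid line, while the assembly factors run from -0.97 to 0.39. Those above the solid line lie below or near the dashed one. After centring Ndufaf5 was called lower at -0.31, while Ndufaf2 and Ndufaf8 were at -0.02 and not called.

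Cell type markers were called on RPKM as deposited, where 64.4% of all genes were called higher and 8.87% lower. Their calls after centring were not counted. The summed RPKM of 6 ventricular cardiomyocyte markers ran from 15465 to 18470 in AAV-Cre and from 18608 to 21707 in AAV-Luc, and 2 of these 6 genes were called higher and 3 lower. All 6 fibroblast markers were called higher, with sums of 864.9 to 1281 in AAV-Cre and 355.9 to 378.9 in AAV-Luc. All 6 macrophage markers were called higher as well, with sums of 280.5 to 374.4 and 138.1 to 149.2. The 3 atrial markers were also called higher (sums of 90.27 to 226.4 and 8.288 to 53.2). Of 5 endothelial markers 1 was called higher and none lower, and none of 4 erythroid markers was called. Of 3 brown fat markers Ucp1 was under 1 RPKM in every library, and the 1 that was tested was called lower (sums of 5.962 to 6.955 and 9.868 to 11.98). In bulk tissue, fewer cells of a type and less RNA per cell cannot be told apart, and the part of these levels in the complex I values was not tested. Without the library of each group with the most Myl7, an atrial gene, 34 subunits were again called lower, with a median of -0.69.

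The 7 core subunits encoded in the nucleus, which carry the flavin and the iron-sulfur clusters or shape the quinone site, were all called lower. Over these 7 the median log2 fold change was -1.10, beside -0.66 for the 29 accessory subunits, of which 27 were called lower. The median percentage of the AAV-Luc level was 46.8% for the core and 62.8% for the accessory subunits. Both counts, and the counts for each part of the enzyme below, stand beside the 8.87% of all genes called lower. The difference between the 2 lists was not tested.

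In the N module, Ndufv1 binds NADH and the flavin at the entry of electrons. Its RPKM was 138.5, 121.7, 135.9 and 115.4 in AAV-Cre libraries 1 to 4 and 265, 303.8, 255.7 and 271.5 in AAV-Luc libraries 1 to 4, where numbers only name libraries and pair none. Every AAV-Luc value was above every AAV-Cre value. Limma gave Ndufv1 a log2 fold change of -1.10 (SE 0.08, adjusted p = 4.79e-06), and the two-sided exact permutation test gave 0.0286, the smallest p that 70 arrangements of 4 and 4 allow. Ndufs1, the largest iron-sulfur subunit, stood at 212, 184.4, 195.6 and 173.4 RPKM in AAV-Cre and at 393.7, 419, 404.8 and 418.2 in AAV-Luc. The groups were well apart, with means of 191.4 ± 16.48 and 408.9 ± 12.07 RPKM (SD, n = 4 each). Ndufs1 had a log2 fold change of -1.10 as well (SE 0.07, limma adjusted p = 2.26e-06). Ndufv2, the iron-sulfur partner of Ndufv1, stood at 91.28, 93.59, 82.22 and 84.23 RPKM in AAV-Cre and at 159.8, 171.7, 167.7 and 170.8 in AAV-Luc. Its groups did not overlap either, with a log2 fold change of -0.93 (SE 0.06, limma adjusted p = 2.78e-06). The exact permutation test gave 0.0286 for each of the 7 core subunits. Any gene without overlap between the groups takes this p, as 66.1% of all genes tested do.

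The 4 accessory members of the N module had log2 fold changes from -0.80 to -0.18, and 3 of them were called lower. Ndufs6, a zinc-binding subunit, went from 186 ± 27.47 RPKM in AAV-Luc to 106 ± 4.189 in AAV-Cre (SD, n = 4 each; log2 fold change -0.80). Ndufs4, whose loss in mice is used as a model of complex I deficiency, had a log2 fold change of -0.59. Ndufv3, an accessory subunit beside the flavin site, had -0.32 (limma adjusted p = 0.00343). Ndufa2 had 93.08, 111.8, 91.69 and 110.5 RPKM in AAV-Cre and 108.1, 140, 112.4 and 101.3 in AAV-Luc. Its groups overlapped, since AAV-Cre libraries 2 and 4 lay above 2 AAV-Luc libraries. For Ndufa2 the log2 fold change was -0.18 (SE 0.11, 95% interval -0.43 to 0.07, limma adjusted p = 0.173), and after centring it was -0.58 (limma adjusted p = 0.00136). In total 6 of the 7 N module genes were called lower, with a median of -0.80.

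All 5 genes of the Q module were called lower, with a median of -1.15. Ndufs7, which carries the last iron-sulfur cluster before ubiquinone, stood at 70.35, 66.77, 70.7 and 51.72 RPKM in AAV-Cre and at 144.2, 166.9, 135.1 and 137.8 in AAV-Luc. The groups did not overlap, and AAV-Cre library 4 was the lowest. On the log2 scale it changed by -1.17 (SE 0.11, limma adjusted p = 1.85e-05).

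Ndufs3, which joins the Q module early in assembly, had 243.4, 230.2, 245.8 and 194.1 RPKM in AAV-Cre and 403.2, 440.4, 372.1 and 423.4 in AAV-Luc. The groups were again separate, with a log2 fold change of -0.85 (SE 0.09, limma adjusted p = 3.34e-05). Ndufs8, another iron-sulfur subunit, had 77.23, 74.98, 67.65 and 71.08 RPKM in AAV-Cre and 112.5, 125.2, 104.8 and 107.7 in AAV-Luc. It changed least among the core subunits, although its groups did not overlap either, with a mean of 72.73 ± 4.24 RPKM against 112.6 ± 9.01 (SD, n = 4 each; limma adjusted p = 5.92e-05). The accessory Ndufa5 fell from 317.6 ± 30.94 to 142.8 ± 8.344 RPKM (SD, n = 4 each; log2 fold change -1.15).

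**Figure D2:**
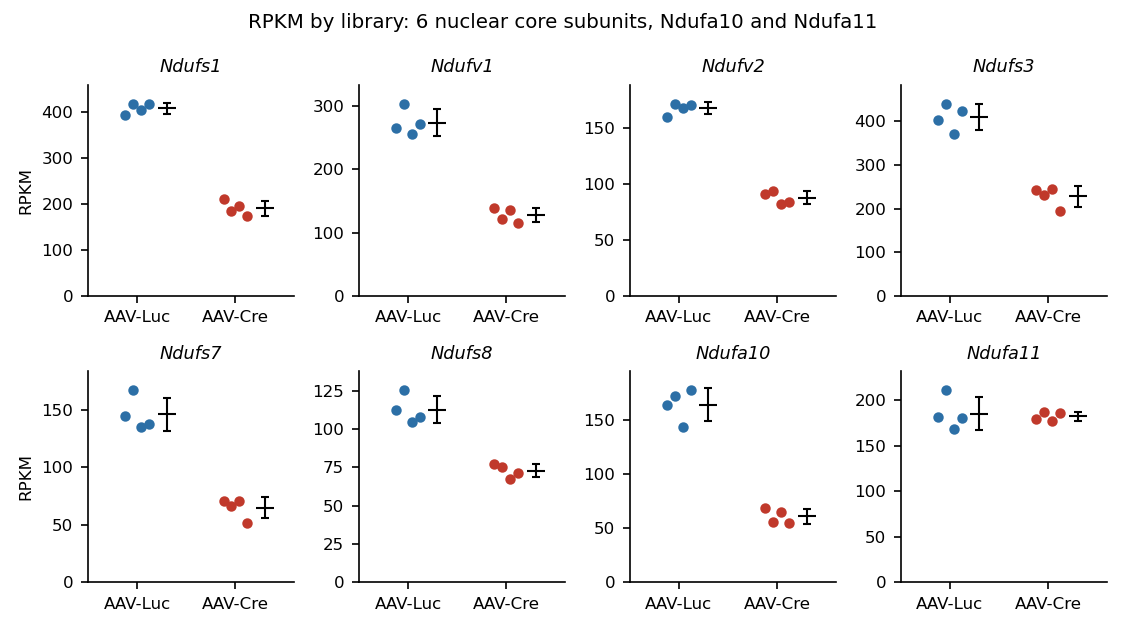
RPKM in each library (points, library 1 to 4 from left to right in each group) with the mean and SD beside them (n = 4), for 6 nuclear core subunits, for Ndufa10, the subunit that fell most, and for Ndufa11, the subunit that changed least. The core subunits and Ndufa10 separate into 2 groups of libraries with no overlap, whereas the 4 AAV-Cre values of Ndufa11, from 177.3 to 187.2, lie within the AAV-Luc range.

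The accessory subunits at the junction of the peripheral and membrane arms were all called lower, 5 of 5, with a median of -0.82. Ndufab1, the mitochondrial acyl carrier protein, fell from 68.13 ± 4.48 to 30.83 ± 3.371 RPKM (SD, n = 4 each; log2 fold change -1.14). Ndufa9 fell from 204.6 ± 9.849 to 95.84 ± 7.173 RPKM (log2 fold change -1.09). Ndufa12, the subunit that takes the place of the assembly factor Ndufaf2, had a log2 fold change of -0.82, and Ndufa6 had -0.62. Ndufa7 changed least of the called subunits. It stood at 114.6, 119.7, 110.8 and 111.8 RPKM in AAV-Cre and at 129.1, 157.8, 133.9 and 132.4 in AAV-Luc. Its groups did not overlap, although the highest AAV-Cre value was close to the lowest AAV-Luc value, and the log2 fold change came to -0.27 (SE 0.07, limma adjusted p = 0.00754).

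The proximal membrane arm held both the largest and the smallest change. Of its 9 genes 8 were called lower, with a median of -0.66. Ndufa10, an accessory subunit of the matrix side related to nucleoside kinases, had 69.28, 56.31, 64.83 and 55.04 RPKM in AAV-Cre and 164.6, 172.5, 143.4 and 177.9 in AAV-Luc. All AAV-Cre values were under 50% of the AAV-Luc mean, at a log2 fold change of -1.42 (SE 0.10, limma adjusted p = 2.99e-06). Among all genes tested, 83 (0.507%) had a lower one. Ndufa8, a cysteine-rich subunit of the intermembrane space side, had 77.48, 72.71, 73.93 and 55.95 RPKM in AAV-Cre and 172.8, 201.9, 159.2 and 164.3 in AAV-Luc. The groups lay far apart, with a log2 fold change of -1.32 (SE 0.11, limma adjusted p = 1.09e-05).

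Ndufa11, a membrane subunit that borders complex III in respiratory supercomplexes, stood at 179.2, 187.2, 177.3 and 186.1 RPKM in AAV-Cre and at 181.8, 211, 168.3 and 180.2 in AAV-Luc. The groups overlapped, with means of 182.4 ± 4.95 and 185.3 ± 18.15 RPKM (SD, n = 4 each). Limma put the log2 fold change at -0.02 (95% interval -0.18 to 0.15, adjusted p = 0.833), and the two-sided exact permutation test gave 0.857. Without AAV-Luc library 2, its highest value, the log2 fold change was 0.05. After centring, Ndufa11 was called lower at -0.43 (limma adjusted p = 0.000401), so it was lower relative to the median gene, whereas no change was called in RPKM. The other proximal subunits had log2 fold changes of -0.74 (Ndufc2), -0.69 (Ndufc1), -0.66 (Ndufa1), -0.64 (Ndufs5), -0.62 (Ndufa13) and -0.56 (Ndufa3). Ndufa13, also known as the cell death regulator GRIM-19, shares 30% of its exon bases with Tssk6 on the opposite strand, and Tssk6 was under 1 RPKM.

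All 10 subunits of the distal membrane arm were called lower, with a median of -0.76 (range -1.08 to -0.43). Ndufb10 was the most abundant of them and fell from 500.9 ± 55.71 to 236.6 ± 27.98 RPKM (SD, n = 4 each; log2 fold change -1.08). Ndufb8, whose protein is often used as a readout of assembled complex I, had -1.07 and Ndufb7 had -1.04. Ndufb9 had -0.94, Ndufb5 -0.86, Ndufb11 -0.66, Ndufb2 -0.60, Ndufb3 -0.58, Ndufb6 -0.47 and Ndufb4 -0.43. Gm49356, at 570.8 RPKM in AAV-Luc beside 366.5 for Ndufb9, shares 19.5% of the Ndufb9 exon bases on the same strand. The part of Gm49356 in the Ndufb9 values was not tested. Ndufb2 had the lowest RPKM of all subunits, 18.39 in AAV-Luc and 11.97 in AAV-Cre. Its annotated exons cover 5628 bases and its median transcript 572, so this level depends on the length used, which is not given. Ndufb4 has a processed pseudogene, Ndufb4c, that is identical over 390 bases and stands at 121% of the Ndufb4 level in AAV-Luc, so that the values of Ndufb4 are uncertain. Copies of at least 98% identity also stood at over 10% of the level of Ndufs5 (38.5%), Ndufa12 (17.7%) and Ndufab1 (16.7% and 10.7%). The copies of Ndufs5 and Ndufa12 had log2 fold changes of -0.56 and -0.79, near those of the genes themselves.

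Ndufa4 had 297.8, 320.7, 265.6 and 271.1 RPKM in AAV-Cre and 546.8, 644.9, 609.4 and 549.4 in AAV-Luc. The groups did not overlap, and Ndufa4 fell by 1.02 on the log2 scale (SE 0.08, limma adjusted p = 8.69e-06). Its paralog Ndufa4l2, a gene associated with hypoxia that the symbol pattern leaves out, had 25.22 ± 2.90 and 25.54 ± 3.74 RPKM (SD, n = 4 each), with a log2 fold change of -0.01 (limma adjusted p = 0.928). That small value became 0.02 to 0.05 without AAV-Cre library 1 or 3 or AAV-Luc library 1 or 2, and -0.42 after centring. Ndufb1-ps, another symbol outside the pattern, had a log2 fold change of -0.45 (limma adjusted p = 0.00171).

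The 7 complex I subunits encoded in mitochondrial DNA, which form the core of the membrane arm, were also lower. All 7 mt-Nd genes were called lower beside 8.87% of all genes, with a median log2 fold change of -0.78 (range -1.13 to -0.45). After centring all 7 were again called lower beside 24.1% of all genes, with a median of -1.19. mt-Nd5, a proton-pumping subunit at the far end of the membrane arm, had 4959, 4913, 5116 and 4550 RPKM in AAV-Cre and 9932, 8960, 11002 and 10156 in AAV-Luc. Its groups did not overlap, and it had a log2 fold change of -1.03 (SE 0.09, limma adjusted p = 9.58e-06). mt-Nd6, encoded on the other strand of mitochondrial DNA, had -1.13, while mt-Nd1 and mt-Nd2 had -0.50 and -0.45. Quantile normalization turned mt-Nd1 to 0.24, where it was called higher (limma adjusted p = 0.00236), and 3 of the 7 were then called lower. Libraries were made from poly(A)-selected RNA and mitochondrial genes have copies in nuclear DNA, and the part of either in these values was not tested.

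Assembly factors of the Ndufaf family did not share the pattern of the subunits in counts: 3 of 8 were called lower, 2 higher and 3 were not called, beside 8.87% and 64.4% of all genes. Their median log2 fold change was -0.13, with a range from -0.97 to 0.39, and 2020 of the genes tested (12.3%) lay below that median. They are much less abundant than the subunits, with a median of 12.03 RPKM in AAV-Luc (range 7.195 to 22.61) beside 160.4 for the subunits. Of the 6597 genes with a mean of 5 to 25 RPKM, 8.11% were called lower and 69.5% higher, with a median of 0.42. After centring, 6 of the 8 were called lower and none higher, beside 24.1% and 21.8% of all genes. Their centred median was -0.54 beside -1.18 for the subunits, so their direction relative to the median gene is lower as well. Centring moves every gene by the same amount and leaves the gap between the medians of subunits and assembly factors as it is, and that gap was not tested.

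Ndufaf4 fell furthest. With Ndufaf3 it acts on the early Q module, and its RPKM was 7.9, 7.101, 5.774 and 6.084 in AAV-Cre and 14.54, 13.14, 13.46 and 13.08 in AAV-Luc. The groups did not overlap, and Ndufaf4 had a log2 fold change of -0.97 (SE 0.10, limma adjusted p = 2.54e-05). Its partner Ndufaf3 had 6.859, 5.761, 6.205 and 7.018 RPKM in AAV-Cre and 7.147, 8.315, 6.351 and 6.966 in AAV-Luc. These groups overlapped, with a log2 fold change of -0.14 (SE 0.10, limma adjusted p = 0.2) and, after centring, -0.55 (limma adjusted p = 0.000556). Whether Ndufaf3 and Ndufaf4 differ in fold was not tested.

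Ndufaf1, part of the membrane complex that builds the early proximal arm, had 14.17, 13.83, 13.42 and 12.91 RPKM in AAV-Cre and 23.09, 22.73, 22.18 and 22.45 in AAV-Luc. Both groups were tight and lay apart, with means of 13.58 ± 0.541 and 22.61 ± 0.387 (SD, n = 4 each). Its log2 fold change was thus -0.72 (SE 0.06, limma adjusted p = 6.54e-06). Ndufaf6, needed for early assembly, had 7.001, 6.508, 6.058 and 6.091 RPKM in AAV-Cre and 10.63, 11.39, 9.7 and 9.128 in AAV-Luc. Its groups did not overlap either, at a log2 fold change of -0.63 (SE 0.08, limma adjusted p = 0.000137). The two-sided exact permutation test gave 0.0286 for Ndufaf1, Ndufaf4 and Ndufaf6, and also for Ndufaf2, which was higher in AAV-Cre. Any gene without overlap between the groups takes this p, as 66.1% of all genes tested do.

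The factors that modify subunits of the Q module moved little in RPKM. Ndufaf7, a protein methyltransferase of early assembly, had 10.24, 9.939, 9.498 and 9.121 RPKM in AAV-Cre and 10.24, 10.94, 10.6 and 10.74 in AAV-Luc. The groups touched at 10.24, and the log2 fold change of -0.13 was not called (SE 0.06, limma adjusted p = 0.0902, exact permutation p = 0.0571), but centred it was called lower (limma adjusted p = 0.000156). Ndufaf5, which hydroxylates Ndufs7, had 13.28, 13.72, 12.31 and 12.53 RPKM in AAV-Cre and 11.86, 11.76, 12.11 and 12.57 in AAV-Luc. AAV-Luc library 4 lay above 2 of the AAV-Cre libraries. The log2 fold change of Ndufaf5 was 0.10 (SE 0.06, limma adjusted p = 0.174) and turned to -0.31 after centring (limma adjusted p = 0.00394).

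Ndufaf8, the stabilising partner of Ndufaf5, had 15.02, 16.25, 16.27 and 15.61 RPKM in AAV-Cre and 11.79, 15.07, 11.49 and 9.782 in AAV-Luc. AAV-Luc library 2 reached into the AAV-Cre range and the other 3 lay below it. Ndufaf8 was called higher at 0.39 in RPKM (SE 0.11, limma adjusted p = 0.0105, exact permutation p = 0.0571), while after centring it was -0.02 and not called (limma adjusted p = 0.922). Ndufaf2, a paralog of Ndufa12, had 15.48, 17.79, 13.16 and 17.38 RPKM in AAV-Cre and 12.01, 11.2, 12.89 and 11.99 in AAV-Luc. All AAV-Cre values lay above all AAV-Luc values, by a small margin for AAV-Cre library 3. Ndufaf2 was called higher at 0.39 in RPKM (SE 0.10, limma adjusted p = 0.00542, exact permutation p = 0.0286). After centring Ndufaf2 was at -0.02 and not called (limma adjusted p = 0.875). It shares 65.6% of its exon bases with the antisense gene B230220B15Rik, which was under 1 RPKM in every library.

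**Figure D3:**
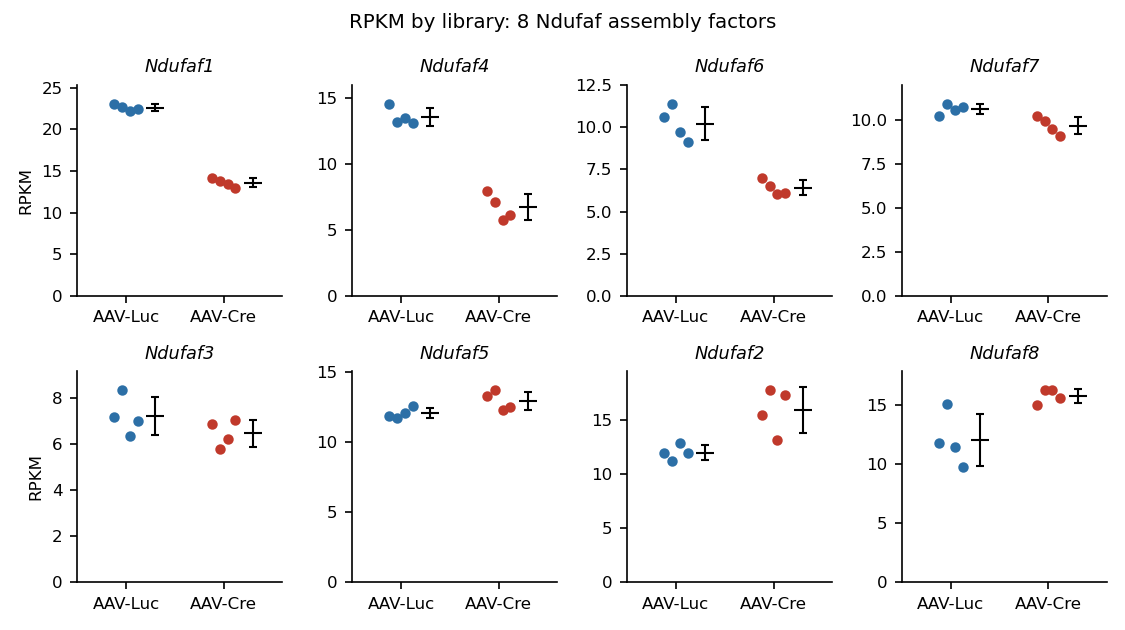
RPKM of the 8 Ndufaf assembly factors in each library (points, library 1 to 4 from left to right) with the mean and SD (n = 4). Ndufaf1, Ndufaf4 and Ndufaf6 are separated with AAV-Cre lower, and Ndufaf2 with AAV-Cre higher; after centring Ndufaf2 and Ndufaf8 have a log2 fold change of -0.02.

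Of 10 other assembly factors that carry no Ndufaf symbol, 4 were called lower, 2 higher and 4 were not called, beside 8.87% of all genes called lower and 64.4% higher. After centring 8 were called lower and 1 higher, beside 24.1% and 21.8% of all genes. Ecsit and Acad9 act in the same membrane complex as Ndufaf1. Ecsit fell from 30.78 ± 2.247 to 18.73 ± 2.087 RPKM (SD, n = 4 each; log2 fold change -0.71), and Acad9 had -0.27 (limma adjusted p = 0.00529). Their partners Tmem126b and Timmdc1 were not called, at -0.12 and -0.18 (limma adjusted p = 0.147 and 0.0524). Foxred1, a flavoprotein of later assembly, fell from 24.15 ± 1.763 to 14.01 ± 0.9455 RPKM (log2 fold change -0.76), and Dmac2, a factor of the distal arm, had -0.83. Tmem186 had -0.19 (limma adjusted p = 0.0533). Nubpl, which delivers iron-sulfur clusters, had 0.10 in RPKM (limma adjusted p = 0.281) and -0.31 after centring.

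Lyrm2 and Dmac1 were the 2 called higher. Lyrm2, a small protein of the LYR family, had 32.89, 40.51, 30.83 and 36.88 RPKM in AAV-Cre and 18.14, 21.18, 19.72 and 20.93 in AAV-Luc. The groups did not overlap, and it was called higher at a log2 fold change of 0.80 (SE 0.09, limma adjusted p = 5.88e-05) and also after centring at 0.39 (limma adjusted p = 0.00616). Dmac1 was called higher at 0.36 in RPKM (limma adjusted p = 0.00463), while after centring it was -0.05.

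Library by library, the median RPKM of the 36 subunits was 88.83, 90.22, 85.35 and 83.88 in AAV-Cre and 155.8, 172.1, 144.1 and 154 in AAV-Luc. The same median over the 8 Ndufaf genes was 11.76, 11.83, 10.91 and 10.82 in AAV-Cre and 11.83, 11.57, 11.8 and 11.37 in AAV-Luc. The subunit medians of the groups lay far apart and the assembly factor medians overlapped. The ratio of these medians, which does not depend on the total of a library, was 7.55 to 7.83 in AAV-Cre and 12.2 to 14.9 in AAV-Luc, with means of 7.69 ± 0.124 and 13.45 ± 1.12 (SD, n = 4 each).

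**Figure D4:**
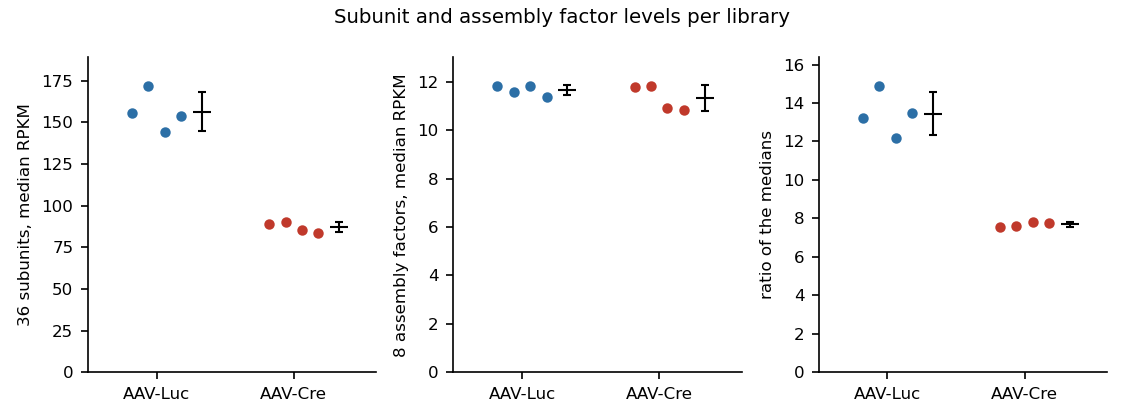
Median RPKM of the 36 subunits, median RPKM of the 8 Ndufaf assembly factors and the ratio of both, in each library (points, library 1 to 4 from left to right) with mean and SD (n = 4 each). The ratio is between 7.55 and 7.83 in AAV-Cre and between 12.2 and 14.9 in AAV-Luc.

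Subunit levels also lay closer to each other in AAV-Cre. The SD of log2 RPKM over the 36 subunits was 0.926 to 0.969 in AAV-Cre and 1.01 to 1.05 in AAV-Luc. Ratios within each library were also taken for pairs of genes. Ndufaf2 over Ndufa12 was 0.309 to 0.419 in AAV-Cre and 0.13 to 0.171 in AAV-Luc. Ndufaf1 over Ndufs1, for which both genes fell, was 0.0668 to 0.075 in AAV-Cre and 0.0537 to 0.0586 in AAV-Luc. The accessory Ndufs4 over the core Ndufs1 was 0.18 to 0.222 in AAV-Cre and 0.133 to 0.147 in AAV-Luc. These pairs were picked, and the same ratios were not taken for other genes.

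Within AAV-Luc, library 2 had the highest value of its group for 34 of the 36 subunits, and the lowest for 6 of the 7 mt-Nd genes. Within AAV-Cre, library 4 had the lowest value for 20 subunits and library 2 the highest for 20. AAV-Luc library 2 also had the most Myl7 of its group, at 26.2 RPKM beside 2.951 to 9.879 in the others. Without AAV-Luc library 2, 34 subunits were called lower with a median of -0.71, and 3 Ndufaf genes lower and 2 higher. The part of Myl7 in these levels was not tested.

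**Figure D5:**
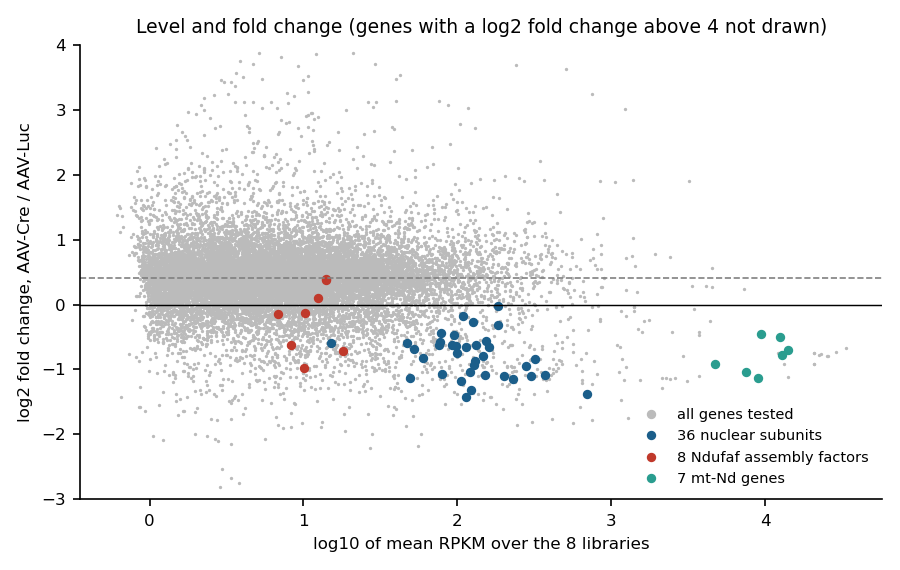
Log10 of the mean RPKM over the 8 libraries (horizontal) against the log2 fold change (vertical) for all genes tested (grey), the 36 nuclear subunits, the 8 Ndufaf genes and the 7 mt-Nd genes; the dashed line is the median of all genes, 0.41. The subunits and mt-Nd genes lie at high levels in the lower part of the cloud. The assembly factors, at 5 to 25 RPKM, reach from -0.97 to 0.39. Ndufaf1, Ndufaf3, Ndufaf4, Ndufaf6 and Ndufaf7 are negative in RPKM and after centring. Ndufaf5 turns to -0.31 after centring, while Ndufaf2 and Ndufaf8 are then at -0.02 and not called.

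Subunits with longer coding sequences had lower fold changes. The 10 subunits with a coding sequence of at least 600 bases had a median log2 fold change of -1.09, and the 26 with a shorter one had -0.66. Over the 36 subunits, Pearson's r of log2 fold change with log10 coding length was -0.48 and Spearman's rho was -0.54, and over the 29 accessory subunits they were -0.34 and -0.44. These are descriptions across genes, which share their libraries and are not independent. Over the 12381 protein-coding genes tested the same values were 0.03 and 0.01, and the medians of 1766 shorter and 10615 longer genes were 0.41 and 0.40. The core subunits are among the longer ones, and the part of length as such was not tested.

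The 45 genes are spread over 17 chromosomes, with 2 on the X chromosome, so the shared direction of the subunits runs across many loci. In GENCODE M21 (GRCm38), Ndufa10 and Ndufa8, which are among the subunits that fell most, lie at chr1:92439010-92473860 (Ndufa10, minus strand) and chr2:36036326-36049406 (Ndufa8, minus strand), and Ndufa11 lies at chr17:56717767-56722141 on the plus strand. Ndufa11 shares 6.41% of its exon bases with Vmac on the opposite strand, and neither Ndufa10 nor Ndufa8 shares any. Promoters are shown because the subunits moved together and the targeted genes encode transcription factors that bind DNA at an extended half-site. Windows of 300 bases, 250 before and 50 after the start site, were found for 40 of the 45 genes in the RefSeq promoter sequences (GRCm38.p6). The ERR motif TNAAGGTCA was searched on both strands and occurred in 1 of the 40, Ndufb4, that is in 2.5% beside 1.43% of 27025 genes with such windows and 0.958% of 10441 tested genes. The shorter AAGGTCA, which lies within that motif, occurred in 3 of 40 (7.5%), namely Ndufb4, Ndufb2 and Ndufs5, beside 5.38% and 4.17%. These 3 had log2 fold changes of -0.43, -0.60 and -0.64, a median of -0.60 beside -0.82 for the other 33 subunits, which include those with no window. Of all 36 subunits, 34 were called lower. A match is a description of letters, and its absence from these windows says nothing about binding elsewhere.

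Motifs of other factors known from promoters of respiratory chain genes were searched on both strands as well, a choice made after the values were seen. The NRF1 motif GCGCNTGCG occurred in 11 of 40 genes (27.5%), beside 7.12% of all genes with windows and 14.4% of those tested. The YY1 motif AANATGGCG occurred in 8 of 40 (20%), beside 2.76% and 5.74%, and the ETS motif CCGGAAG in 6 of 40 (15%), beside 9.93% and 19.3%. The median log2 fold change was -0.80 for the 9 subunits with the NRF1 motif and -0.74 for the other 27, which include the 4 with no window. Subunits with the YY1 motif had a median of -0.69 and the rest -0.82, and for ETS the medians were -0.74 and -0.77. The rest again includes the 4 with no window.

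The stretches that follow run from 80 bases before the start site to 20 bases from it, 5′ to 3′ on the strand of the gene, with motifs in capitals. They show 2 of the subunits that fell most (Ndufa10 and Ndufa8), the member with the ERR motif (Ndufb4), the subunit that changed least (Ndufa11), an assembly factor that fell (Ndufaf1) and one that was higher in RPKM but not after centring (Ndufaf8).
Ndufa10, chr1:92473739-92473838, minus strand: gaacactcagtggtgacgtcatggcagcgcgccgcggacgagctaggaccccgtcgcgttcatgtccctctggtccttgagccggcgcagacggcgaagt
Ndufa8, chr2:36049319-36049418, minus strand: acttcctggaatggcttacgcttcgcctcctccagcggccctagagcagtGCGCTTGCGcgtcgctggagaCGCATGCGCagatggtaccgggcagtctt
Ndufb4, chr16:37654349-37654448, minus strand: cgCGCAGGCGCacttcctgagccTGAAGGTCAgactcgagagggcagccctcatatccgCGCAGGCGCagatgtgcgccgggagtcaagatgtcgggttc
Ndufa11, chr17:56717682-56717781, plus strand: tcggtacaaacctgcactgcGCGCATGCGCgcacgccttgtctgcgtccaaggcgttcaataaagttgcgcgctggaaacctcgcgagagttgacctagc
Ndufaf1, chr2:119662815-119662914, minus strand: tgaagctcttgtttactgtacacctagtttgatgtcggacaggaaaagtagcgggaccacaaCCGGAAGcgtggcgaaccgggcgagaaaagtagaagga
Ndufaf8, chr11:120098854-120098953, plus strand: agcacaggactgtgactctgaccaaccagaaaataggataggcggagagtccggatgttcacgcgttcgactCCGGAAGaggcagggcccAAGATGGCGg

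In these stretches Ndufa8 has the NRF1 motif once on each strand and Ndufa11 has it on both strands at overlapping bases. Ndufa8 had a log2 fold change of -1.32 and Ndufa11 one of -0.02. Whether motifs and fold changes are linked was not tested. Ndufb4 has the ERR motif with its first base at position -57 from the start site, and an NRF1 motif on either side of it. The log2 fold change of Ndufb4 was -0.43, and its values are uncertain because of the identical copy Ndufb4c. Ndufa10, with the lowest fold change of all subunits, has none of the motifs in its stretch. Ndufaf1 has the ETS motif, and Ndufaf8 has the ETS motif and, further downstream, the YY1 motif. Log2 fold changes of Ndufaf1 and Ndufaf8 were -0.72 and 0.39 in RPKM, the latter -0.02 after centring.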

How the data were processed

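Polyadenylated RNA of 8 ventricle samples was sequenced in paired reads, per the labels' protocols, which name both a TruSeq and a NEBNext Ultra kit. The values the authors deposited are RPKM per gene. The build mm10 and the tools STAR, edgeR, Partek 6.6 and FastQC 0.11 are named in the submitters' processing notes, without roles; annotation, gene lengths and strand are not known here. Columns name the group and no sample, so library numbers follow column order. Low RPKM values were whole multiples of 1 step, within 0.1, in 98.7 to 99.3% of cases.

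Genes that reached 1 RPKM in 4 or more libraries were tested on log2(RPKM + 0.5) with limma 3.58.1 (R 4.3.3, trend), adjusted by Benjamini-Hochberg over 16385 genes; the pseudocount makes folds of low genes smaller. All 45 members passed this filter. The fit was tested on simulated data. Exact permutation tests were computed in R, and correlations with scipy 1.17.1. Symbols were matched to GENCODE M21 (98.9%), and copies were found with BLAST 2.17.0 among its transcripts (at least 98% identity over 200 bases). Other steps used pandas 2.3.3, numpy 2.4.6 and, for plots, matplotlib 3.10.9 under Python 3.11.15. Members, gene lists, structural groups and the rule for named genes (core subunits, all Ndufaf genes, Ndufa4, the 3 largest and 3 smallest changes and each subunit not called) were chosen with earlier results of these data known. Alternatives were other pseudocounts, filters and scalings and leaving out libraries. Coa1 was not analysed here. A gene that the rule names is not reported here and is drawn in no labelled plot.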

Additional observations from a re-analysis of the deposited data

Results flagged for a closer look

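In each gene and group of 4 libraries, the gap between an extreme library and its nearest neighbour was set against the whole range of the group; chance flags about 1 in 20 groups, and 9 of 138 groups had a library apart. AAV-Luc library 2 was the high one in 6 of them. It had 421.3 RPKM of Ndufb9 (next 350.7), 138.6 of Ndufs5 (next 115) and 71.47 of Ndufc1 (next 63.72). It also had 157.8 of Ndufa7 (next 133.9), 20.89 of Dmac1 (next 16.96) and 2.974 of Ndufs6b (next 1.458). Ndufs6b is a low-level locus of 1 exon with no annotated coding sequence, and whether its reads come from Ndufs6 was not tested. In AAV-Cre, library 4 was low for Ndufb9 at 175.6 RPKM (next 193.5) and for Ecsit at 15.6 (next 19.69), and library 2 was high for Ndufb6 at 84.47 (next 78.26). Ndufb9 shares 19.5% of its exon bases with Gm49356 on the same strand, and Ndufb6 shares 39% with Smim27 on the opposite strand. Gm49356 stood at 380.4 RPKM in AAV-Cre and 570.8 in AAV-Luc, above Ndufb9 at 189.9 and 366.5, with a log2 fold change of -0.58. Smim27 stood at 20.01 and 26.13 RPKM. The part of either gene in these values was not tested.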

How the results depend on the processing

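The count of subunits called lower was 34 to 36 under all 16 alternatives, and 34 whenever 1 library was left out; their median log2 fold change then ran from -0.80 to -0.71, and it was -1.18 after centring and -1.03 after quantile normalization. Over all genes, centring, a mean of at least 5 RPKM and quantile normalization changed the genes called from 12013 to 7527, 7705 and 7648, and those called higher from 10559 to 3578, 6607 and 3810. Genes called lower went from 1454 to 3949 (centred) and 3838 (quantile). Leaving out 1 library gave 10645 to 11619 genes called.

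The median of the Ndufaf genes was -0.54 with either scaling, -0.20 without mitochondrial genome and haemoglobin genes and -0.08 without the libraries with the most Myl7, and -0.16 to -0.09 with 1 library left out. With either scaling 6 Ndufaf genes were called lower and 0 higher, and 8 other assembly factors were called lower (7 without mitochondrial genome and haemoglobin genes). Of the mt-Nd genes, 4 were called lower with no filter and 3 after quantile normalization. With quantile normalization mt-Nd1, mt-Nd4 and mt-Nd4l had log2 fold changes of 0.24, 0.02 and 0.07, and mt-Nd1 was called higher (limma adjusted p = 0.00236). Centred and quantile values were -0.05 and -0.02 for Dmac1, -0.02 and -0.0017 for Ndufaf2, -0.31 and -0.29 for Ndufaf5 and -0.31 and -0.34 for Nubpl, and Ndufaf8 was -0.02 centred. Ndufa11 was -0.06 to 0.05 with 1 library left out (0.05 without AAV-Luc library 2) and 0.06 without the libraries with the most Myl7, where Ndufa4l2 was 0.07; leaving out 1 library gave -0.12 to 0.05 for Ndufa4l2 (0.02 without AAV-Cre library 1, 0.03 without AAV-Cre library 3). The cause was not tested. Values of Ndufaf genes rest on low RPKM, and intervals from depth were not computed because gene lengths are not given. No paired analysis was possible because the column names carry no replicate number.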
